A study of Schizosaccharomyces pombe with 2 samples.

Results

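Large ribosomal subunit protein genes were taken as every protein-coding gene of fission yeast (Schizosaccharomyces pombe) whose symbol starts with rpl or rpp followed by a digit. This rule gave 86 of 5113 protein-coding genes on chromosomes I, II and III. Of these, 81 are annotated as cytosolic 60S or stalk proteins. The other 5 are rpp1, rpp21 and rpp40, which encode subunits of RNase P or RNase MRP, rpl701, annotated as an L7-like RNase MRP subunit, and rpl44, which has an L28e domain.

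The measurement was chromatin immunoprecipitation and sequencing (ChIP-seq) of Cnd2. This is the kleisin of condensin, the ring-shaped complex that compacts mitotic chromosomes. An anti-HA ChIP library was set against an input library, 1 of each, both from strain YUK421, in which Cnd2 carries an HA tag. Cells of both were arrested in mitosis with 5 µg/mL thiamine and fixed for 30 min at 25 °C in 0.5% formaldehyde. After removal of duplicates the ChIP held 25933013 fragments and the input 54272630. The labels do not name the gene through which thiamine stopped the cells. With 1 library per group no value has a replicate check, no p-value is given, and intervals cover counting error only. In a bulk culture, binding in fewer cells and weaker binding in each cell cannot be told apart.

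The 60S subunit joins amino acids into protein. Its proteins surround the peptidyl transferase centre and line the exit tunnel, and the stalk of uL10 (rpp0), P1 and P2 recruits elongation factors. Genes of this class are among the most heavily transcribed of RNA polymerase II in growing cells, and in fission yeast most exist in 2 or 3 copies. Many of their promoters carry the HomolD box, which stands in for a TATA box. Condensin is known to accumulate at highly transcribed genes in mitosis.

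The promoters below show the box that members share whether or not Cnd2 was found at the gene. They run from 100 to 21 bases before the annotated gene start, in ASM294v3 (RefSeq), 5′ to 3′ on the strand of the gene. Capitals mark HomolD (CAGTCACA, or TGTGACTG on the other strand) and HomolE (ACCCTACC). The genes rpl801 and rpl1001 had a peak past their 3′ ends, and rpl1101 and rpl3201 had none in reach.
rpl801 (chrI:4251458-4251537, minus strand): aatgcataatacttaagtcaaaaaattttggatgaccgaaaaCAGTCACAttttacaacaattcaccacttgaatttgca
rpl1001 (chrII:2081381-2081460, plus strand): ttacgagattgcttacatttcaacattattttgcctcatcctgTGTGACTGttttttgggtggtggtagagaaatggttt
rpl1101 (chrI:3346906-3346985, minus strand): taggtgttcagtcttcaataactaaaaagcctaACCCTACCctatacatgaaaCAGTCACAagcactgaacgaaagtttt
rpl3201 (chrII:4351778-4351857, plus strand): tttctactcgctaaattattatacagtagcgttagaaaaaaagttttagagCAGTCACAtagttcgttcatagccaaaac

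Searched on both strands from 250 bases before to 50 after the annotated start, HomolD was present in 54 of the 86 genes (62.8%), against 2.68% of all protein-coding genes. Its median place was 51 bases before the start. HomolE, the companion box, was present in 20 (23.3%), against 1.62%. HomolD was found in 25 of the 37 members with a Cnd2 summit in reach (67.6%, exact 95% interval 50.2 to 82.0) and in 29 of the 49 others (59.2%, 44.2 to 73.0). These intervals overlap widely. A match of letters is a description and not evidence of binding by a factor.

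Of the 86 genes, 37 held a Cnd2 summit or had one within 500 bp (43.0%, exact 95% interval 32.4 to 54.2), whereas 15.1% of all protein-coding genes met the same rule. In total 38 peaks were involved, since rpl2302 had a pair of them. No summit was shared by 2 members. Of the small-subunit (rps) genes, 24 of 55 were in reach of a summit (43.6%, 30.3 to 57.7). Mitochondrial ribosomal protein genes stood at 3 of 50 (interval up to 16.5%), and the 53 genes of 60S assembly and export factors found among 64 listed names stood at 14 (26.4%, 15.3 to 40.3). The interval of the large-subunit genes lay above those of the mitochondrial genes and of all protein-coding genes, overlapped that of the assembly factors and nearly coincided with that of the small subunit.

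**Figure D1:**
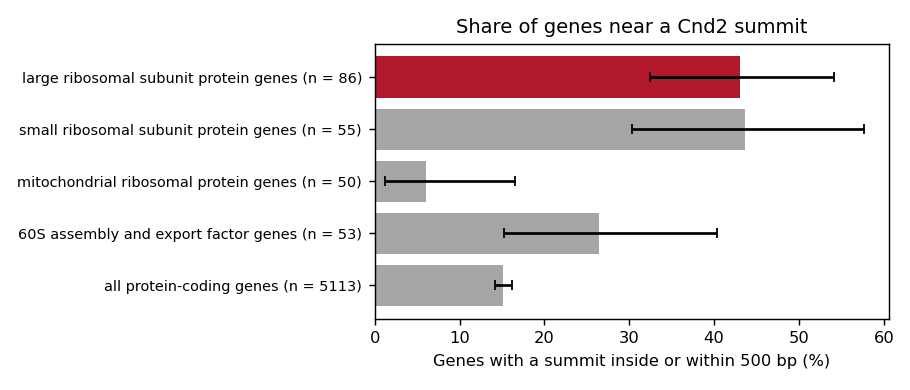
Share of genes (%, x axis) with a Cnd2 summit inside or within 500 bp, for 5 gene lists (rows, n in brackets). Bars start at 0 and error bars are exact 95% intervals for counting error. The large and small subunit lists stand at 43.0% and 43.6%, above all protein-coding genes at 15.1%.

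The members were spread over all 3 chromosomes. A summit was in reach of 13 of 34 genes on chromosome I (38.2%), 14 of 31 on II (45.2%) and 10 of 21 on III (47.6%). For all protein-coding genes the shares were 13.2%, 15.1% and 20.3%. Members with a summit had a median length of 723 bp, against 671 bp for the others. Of members with several coding exons 22 of 45 were in reach (48.9%, 33.7 to 64.2), and of those with a single one 15 of 41 (36.6%, 22.1 to 53.1). Their intervals overlap, the difference was not tested, and the shares of all protein-coding genes so divided are not given. Stalk genes stood at 3 of 7, namely rpp0, rpp102 and rpp203, and of the 4 members annotated as RNase P or MRP subunits rpl701 was in reach and rpp1, rpp21 and rpp40 were not.

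Summits gathered at one end of the gene. Of the 38 summits, 37 were nearer to the 3′ end of the member than to its 5′ end (97.4%, 86.2 to 99.9). Over all 843 pairs of a protein-coding gene and a summit in its reach this share was 80.2% (77.3 to 82.8). Small-subunit genes stood at 24 of 26 pairs (92.3%, 74.9 to 99.1), and the intervals of the 2 subunits overlap. The same 37 were within 500 bp of the 3′ end, so that 37 of 86 genes met that rule, against 11.6% of all protein-coding genes. The 5′ end was within 500 bp of a summit for 2 genes, rpl2302 and the short rpl4302, against 2.74% of all.

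Most summits were downstream of the gene, not in it. Past the 3′ end lay 31 (81.6%, 65.7 to 92.3), inside the member 6 (15.8%, 6.02 to 31.3) and before its 5′ end 1. For the small subunit 76.9% of pairs were past the 3′ end (56.4 to 91.0), again with overlapping intervals. Over all protein-coding pairs the shares were 45.9% past the 3′ end (42.5 to 49.3), 39.6% inside and 14.5% before the 5′ end. Members are shorter than the average gene, with a median of 693.5 bp against 1773 bp, and the part of gene length in these shares was not tested. A summit inside the gene was found for 6 of 86 members, against 6.14% of all protein-coding genes.

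The 31 downstream summits were 12 to 359 bp past the annotated 3′ end, with a median of 175 bp. Of these, 6 were within 100 bp, 17 between 100 and 250 bp and 8 farther out. The 6 internal ones, in rpl4302, rpl1901, rpl1602, rpl2302, rpl402 and rpl102, were 48 to 225 bp before the end. Measured from the stop codon, 34 of 38 summits lay downstream of it. The median over the 37 at 3′ ends was 276 bp past the stop codon.

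**Figure D2:**
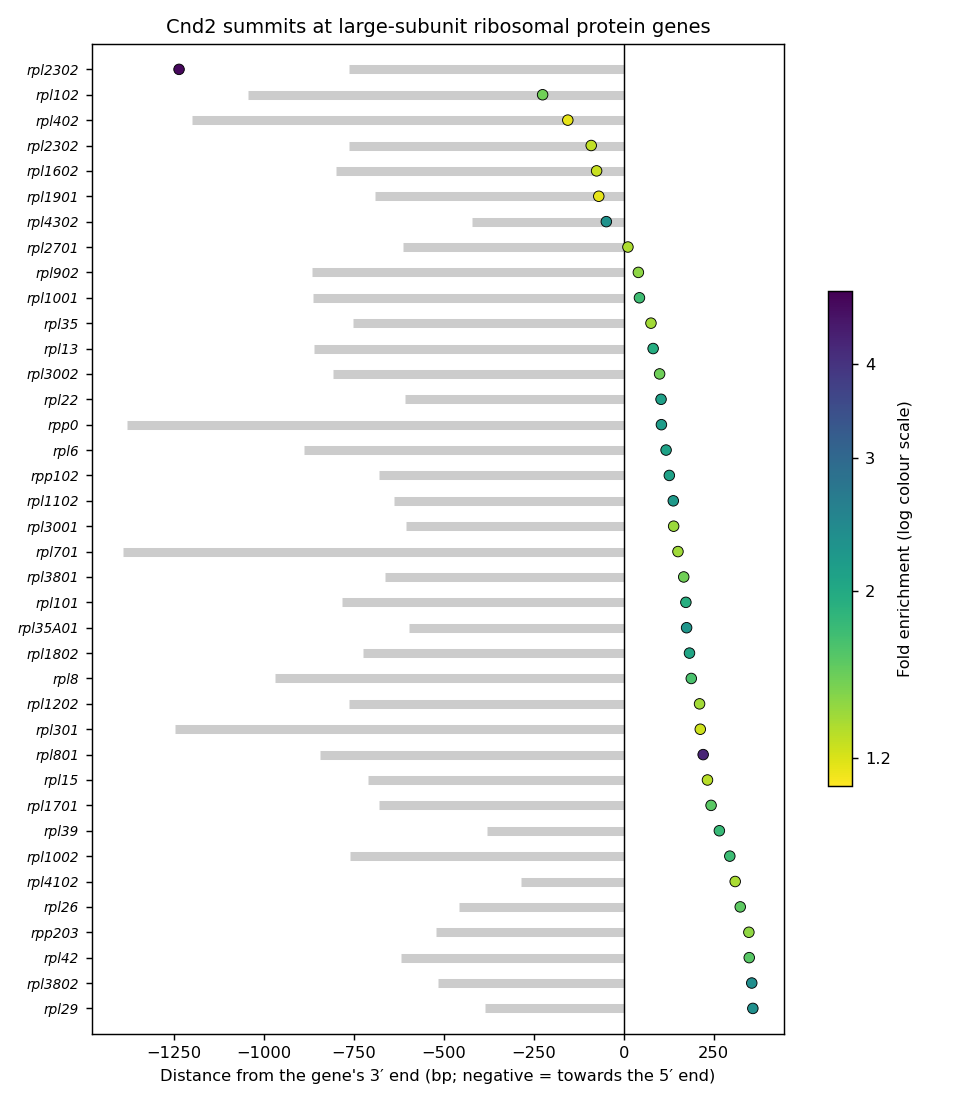
Each row is 1 gene and summit pair. The grey bar is the annotated gene, drawn to scale and aligned at its 3′ end (0 on the x axis, in bp), and the dot is the Cnd2 summit, coloured by fold enrichment on a log colour scale. The dots gather from 225 bp before to 359 bp past the 3′ end, except for the upstream summit of rpl2302 at the left.

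**Figure D3:**
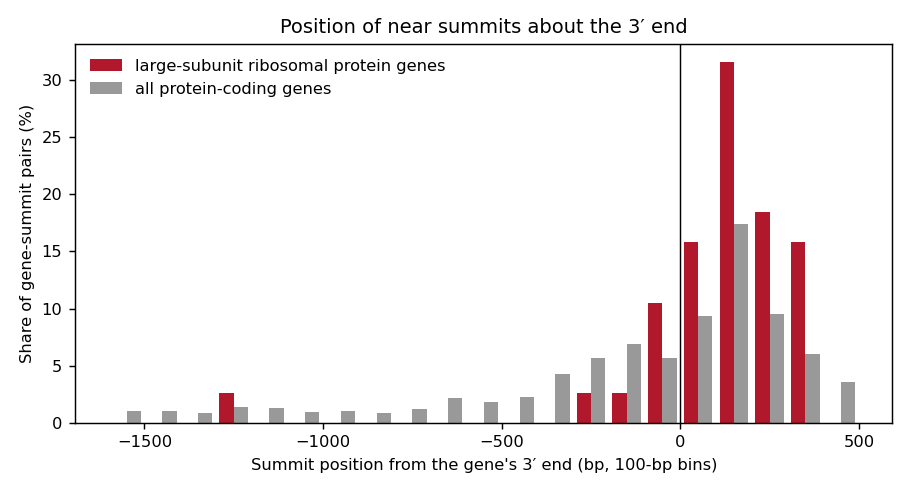
Share of gene and summit pairs (%, y axis) by summit position from the gene's 3′ end (bp, x axis, bins of 100 bp), for the 38 pairs of large-subunit genes (red) and the 843 pairs of all protein-coding genes (grey). Positions farther than 1600 bp inside longer genes are not drawn. The tallest bin of both is 100 to 200 bp past the 3′ end, with 31.6% and 17.4%.

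The neighbouring genes rpl35 and rpl902 on chromosome III, which encode L35 and L9, both show this arrangement. They are transcribed away from each other from starts 203 bp apart. A summit lay 76 bp past the 3′ end of rpl35 (1.36-fold) and another 41 bp past that of rpl902 (1.42-fold), and none lay between the genes. The rpl35 summit was also 62 bp before the start of the tandem gene rng3, the nearest protein-coding gene. The 3′ end of SPCC613.03 was 290 bp from it.

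Enrichment at these peaks was modest. Fold enrichment is the authors' own value for each peak, the ChIP pileup divided by the local background. The pileup is the fragment coverage at the summit, not a count over the whole peak. It had a median of 1.62 over the 38 peaks (quartiles 1.36 and 2.09, range 1.16 to 4.83), against 1.72 over all 664 peaks (1.36 and 2.47). Enrichment exceeded 2-fold at 12 of the 38 (31.6%, 17.5 to 48.7) and at 39.8% of all peaks. With a background no lower than the genome mean, an alternative chosen after seeing the data, 7 of the 38 exceeded it (18.4%, 7.74 to 34.3), against 31.6% of all peaks. The 5 that did not were rpl3802 at 1.93-fold, rpl29 at 1.702, rpl22 at 1.66, rpl1802 at 1.61 and rpp102 at 1.604. As deposited and counted by gene, 12 of the 86 members had such a summit in reach, against 5.61% of all protein-coding genes. The peaks were also narrower, with a median width of 428.5 bp against 523 bp.

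The gene with the highest fold in reach was rpl2302, with a peak before its 5′ end and another at its 3′ end. The first (III, 1310139 to 1311485) had a pileup of 2709 ChIP fragments against a background of 560.1, or 4.83-fold (4.65 to 5.02, counting error of the ChIP pileup). The summit was 473 bp before the start of rpl2302 but 202 bp from the 3′ end of knh2, a cell surface protein gene of the Kre9/Knh1 family, and the peak ended before rpl2302 began. A separate weak peak (III, 1312161 to 1312638) had a pileup of 784 over 617, a fold of 1.27 (1.18 to 1.36). Its summit was 90 bp inside the 3′ end of rpl2302, which encodes L23. The 3′ end of the checkpoint kinase gene bub1 was 266 bp from it.

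The strongest peak at a member's own 3′ end was at rpl801, 1 of 3 copies for uL2, a protein of the peptidyl transferase centre. This peak (I, 4249507 to 4250770) had a pileup of 1951 against a background of 453, or 4.30-fold (4.11 to 4.49). Its summit lay in the 363 bp gap between rpl801 and the convergent gene yak3, an aldose reductase gene, 221 bp past rpl801 and 143 bp from the 3′ end of yak3. The next highest at a member's 3′ end was 2.37-fold.

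Among genes of the stalk and of elongation, rpp0 (uL10, the base on which P1 and P2 assemble) had a peak (III, 1980114 to 1980925). Its pileup was 1157 over 532, a fold of 2.17 (2.05 to 2.30). Its summit was 105 bp past rpp0 and 66 bp from the 3′ end of trm82, a tRNA methyltransferase subunit gene. At rpp102 (P1) the peak (II, 4008354 to 4009060) had a pileup of 689 over 328, or 2.097-fold (1.94 to 2.26). Its summit was 127 bp past the gene and inside trs23, a TRAPP complex gene. At rpp203 (P2) a 1.42-fold summit lay 348 bp past the gene, and the peak did not overlap rpp203. This summit was inside SPAC1071.09c, an opposite-strand gene whose annotated span also holds rpp203. The peak at rpl35A01 (III, 539634 to 540368), which encodes eL33, had a pileup of 1496 over 661, or 2.26-fold (2.15 to 2.38). Its summit was 175 bp past rpl35A01 and 109 bp from the 3′ end of eft202, which encodes translation elongation factor 2, in the gap between these convergent genes.

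Genes for proteins of the tRNA path and the exit tunnel followed. The gene rpl1102 (uL5, which binds the 5S RNA) had a peak (II, 2190253 to 2190793) with a pileup of 933 over 420.04, or 2.22-fold (2.08 to 2.37). Its summit was 138 bp past rpl1102 and 158 bp from the convergent pyr1, pyruvate carboxylase. At rpl39, for a small exit tunnel protein, the fold was 1.80 and the summit 266 bp past the gene. At rpl1701 (uL22, also of the tunnel) it was 1.62 and 243 bp, inside osh2. At rpl42 (eL42, at the exit site for tRNA) it was 1.63 and 349 bp. The rpl42 summit was 333 bp before the start of the tandem gene hal3.

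Also above 2-fold were 6 others, rpl3802 among them. At rpl29 (II, 3172637 to 3173443) a pileup of 731 stood over 311, or 2.35-fold (2.18 to 2.52). The summit was 359 bp past the gene and 110 bp from the 3′ end of dis2, a catalytic subunit of protein phosphatase 1. The small nucleolar RNA gene snR93 was also in reach of it. At rpl4302 (eL43) the peak (II, 1513043 to 1513690) had a pileup of 1243 over 538, or 2.31-fold (2.18 to 2.44). Here the summit was 48 bp inside the 3′ end of rpl4302. It was also inside ucp8, an opposite-strand gene whose annotated span holds rpl4302 and whose 3′ end was 585 bp away.

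The folds of rpl22, rpl6 and rpl1802 came next. The rpl22 peak (I, 5315220 to 5315817) was 2.13-fold (1.98 to 2.29), with its summit 104 bp past rpl22 and inside ofd2, a dioxygenase gene whose 3′ end was 62 bp away. At rpl6 (III, 1437880 to 1438312) the fold was 2.08 (1.96 to 2.21), 118 bp past the gene and inside str2, an iron siderophore transporter gene on the opposite strand whose annotated span also holds rpl6. The rpl6 summit was also 67 bp before the start of the tandem gene jmj4. At rpl1802 (eL18; I, 1286318 to 1286700) the fold was 2.05 (1.90 to 2.21), 183 bp past the gene and inside SPAPB17E12.14c, annotated as a 6-phosphofructo-2-kinase.

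At rpl3802 (eL38) the peak (I, 1096256 to 1096676) had a pileup of 830 over 349, or 2.37-fold (2.22 to 2.54). Its summit, 356 bp past the gene, was inside the serine tRNA gene SPATRNASER.01 and in reach of SPATRNAMET.01. The part of these tRNA genes in the peak was not tested. It and rpl29 were the 2 of 38 members' peaks with a tRNA, rRNA, snRNA or snoRNA gene in reach. Without such peaks 35 members had a summit in reach (40.7%, against 12.9% of all protein-coding genes).

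Other members' peaks were under 2-fold. The 1.33-fold summit at rpl2701 (eL27; pileup 649 over 489) was 12 bp past its 3′ end and 99 bp from that of rps001, which encodes uS2 of the small subunit and converges on it. The 1.33-fold summit at rpl4102 (eL41) was 310 bp past the gene and inside the convergent gene ltv1, a ribosome biogenesis factor, whose 3′ end was 316 bp away. With a background no lower than the genome mean the rpl4102 peak was 1.07-fold and fell short of the weakest p of the list. At rpl8 (eL8) a 1.70-fold summit (1.56 to 1.84) was 188 bp past the gene, and the tandem gene vps71, for a Swr1 complex subunit, began 326 bp farther on. At rpl701 a 1.37-fold summit (1.26 to 1.48) was 151 bp past the gene and 73 bp before the start of ppr2.

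Who owns a peak was ambiguous for many members. Genes that converge place 2 ends in 1 gap, some members are spanned by another gene, and some have a tandem gene close downstream. The member held the summit or was the nearest protein-coding gene at 16 of 38 summits. Another protein-coding gene held 12, and 21 lay inside no protein-coding gene. These counts leave out non-coding RNA genes, which held 11 of the 38 summits (28.9%, 15.4 to 45.9). Counted by ends, the member's 3′ end was the nearest of all protein-coding 3′ ends at 27 of 38 (71.1%, 54.1 to 84.6).

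Of the 37 summits at members' 3′ ends, 21 were also within 500 bp of another protein-coding 3′ end. In 10 of these the other end was nearer, and in all 10 the next gene was convergent. They were rpl801, rpl29, rpl35A01, rpp0, rpl22, rpl101, rpl39, rpl1001, rpl15 and rpl301. The differences were small at rpl101 (uL1), 173 bp from its own end and 162 bp from that of rrp5, a ribosomal RNA processing gene, and at rpl1001, 44 bp and 22 bp from that of elp5. They were larger at rpl15 (eL15), 233 bp and 61 bp from the end of mhf2, and at rpl301 (uL3), 213 bp and 93 bp from that of mde10.

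A set of 16 summits had no other protein-coding 3′ end within 500 bp, and 15 of these had no tRNA, rRNA, snRNA or snoRNA gene in reach either. They belonged to rpl3802, rpl4302, rpl6, rpl1802, rpl13, rpl1002, rpl8, rpl42, rpl26, rpl102, rpl3801, rpl902, rpp203, rpl701, rpl1202 and rpl1901. Their folds had a median of 1.61 (range 1.16 to 2.37), beside 1.62 (1.16 to 4.30) for the 21 with a competing end. Another gene's 5′ end was within 500 bp of 5 of the 16, and another protein-coding gene held the summit in 5. A clear case was rpl13 (eL13; I, 1711940 to 1712309), with 1.96-fold (1.82 to 2.11), 82 bp past the gene and 1652 bp from the next 3′ end. At rpl1002 the summit was 295 bp past the gene and 1622 bp from the next, inside the non-coding RNA gene SPNCRNA.933. Non-coding RNA genes also held the summits at rpl3802, rpl8, rpl42, rpl26, rpl902 and rpl1901.

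**Figure D4:**
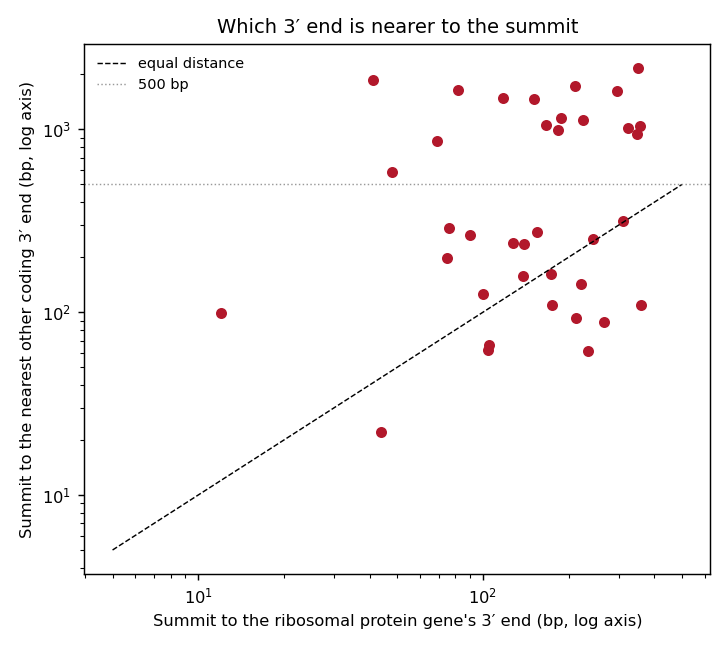
For the 37 summits at members' 3′ ends, distance to that end (x axis, bp, log) against distance to the nearest other protein-coding 3′ end (y axis, bp, log). The 10 points under the dashed line of equal distance are nearer to the other gene's end, and the 16 above the dotted line at 500 bp have no other end in reach.

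The members were also divided by the orientation of the next gene downstream. Where the next gene downstream was convergent, 22 of 50 members had a summit in reach (44.0%, 30.0 to 58.7), against 19.0% of all protein-coding genes so arranged. Where it was tandem, 15 of 36 did (41.7%, 25.5 to 59.2), against 10.6%. The next gene was taken in order along the chromosome, so a gene lying over a member could be passed over. Thus rpl3801, rpl6 and rpl1802 counted as tandem, although an opposite-strand protein-coding gene spans each of them and holds its summit. Such genes also span rpl4302 and rpp203, which counted as convergent, and hold their summits. The intervals of the 2 arrangements overlap among members, and the difference was not tested. Members' folds at 3′ ends had a median of 1.69 with a convergent next gene and 1.597 with a tandem one.

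Paralogous copies were compared family by family. The symbols gave 33 families of 2 or 3 copies, 70 genes in all. A summit was in reach of 1 copy and not the others in 19 families (57.6%, 39.2 to 74.5), of every copy in 4 and of none in 10. With 27 of the 70 copies in reach, many families would differ even if copies were independent of each other. The 19 was not set against that expectation. Among genes with no second copy by name, 10 of the 12 annotated as 60S or stalk proteins had a summit in reach (83.3%, 51.6 to 97.9), against 27 of the 70 copies (38.6%, 27.2 to 51.0). These intervals narrowly miss each other and the difference was not tested. The 10 were rpl6, rpl8, rpl13, rpl22, rpl26, rpl29, rpl35, rpl39, rpl42 and rpp0, and the 2 without were rpl14 and rpl31. The L28e-domain gene rpl44, also single, had none in reach, and with it the share was 10 of 13 (76.9%, 46.2 to 94.96), whose interval overlaps that of the copies.

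The 4 families with a summit at both copies were rpl1 (uL1), rpl10 (uL16), rpl30 (eL30) and rpl38 (eL38). In rpl10 the copies had overlapping intervals, 1.76-fold at rpl1001 (1.63 to 1.89) and 1.77-fold at rpl1002 (1.65 to 1.90). In rpl30, rpl3001 stood at 1.38-fold (1.27 to 1.498) and rpl3002 at 1.54-fold (1.41 to 1.68), with overlapping intervals. With a background no lower than the genome mean their order turned, to 1.33-fold at rpl3001 and 1.16-fold at rpl3002. In rpl1, rpl101 was higher at 1.93-fold (1.82 to 2.05), against 1.53-fold at rpl102 (1.40 to 1.67). With that background the rpl102 peak was 1.13-fold and fell short of the weakest p of the list, which leaves rpl1 with a summit at rpl101 alone. In rpl38, rpl3802 with its tRNA neighbours was at 2.37-fold, against 1.52-fold at rpl3801 (1.40 to 1.65). The intervals of the last 2 families do not overlap, but cover only counting of ChIP fragments in 1 library.

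In the 19 families that differed, the 23 copies without a summit in reach had their nearest one a median of 7808 bp away. For 20 of them it was beyond 1000 bp, up to 35510 bp at rpl4101. Such pairs include rpl1102 and rpl1101, whose nearest summit was 33021 bp off, and rpl35A01 (2.26-fold) and rpl35A02 (10272 bp). For rpl801 and its copy rpl802 the distance was 5510 bp, and for rpp102 the copies rpp101 and rpp103 lay 3229 and 11702 bp from a summit. Weaker peaks also marked single copies, such as rpl1602 (uL13; 1.251-fold), rpl1901 (eL19; 1.16-fold) and rpl402 (uL4; 1.16-fold).

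**Figure D5:**
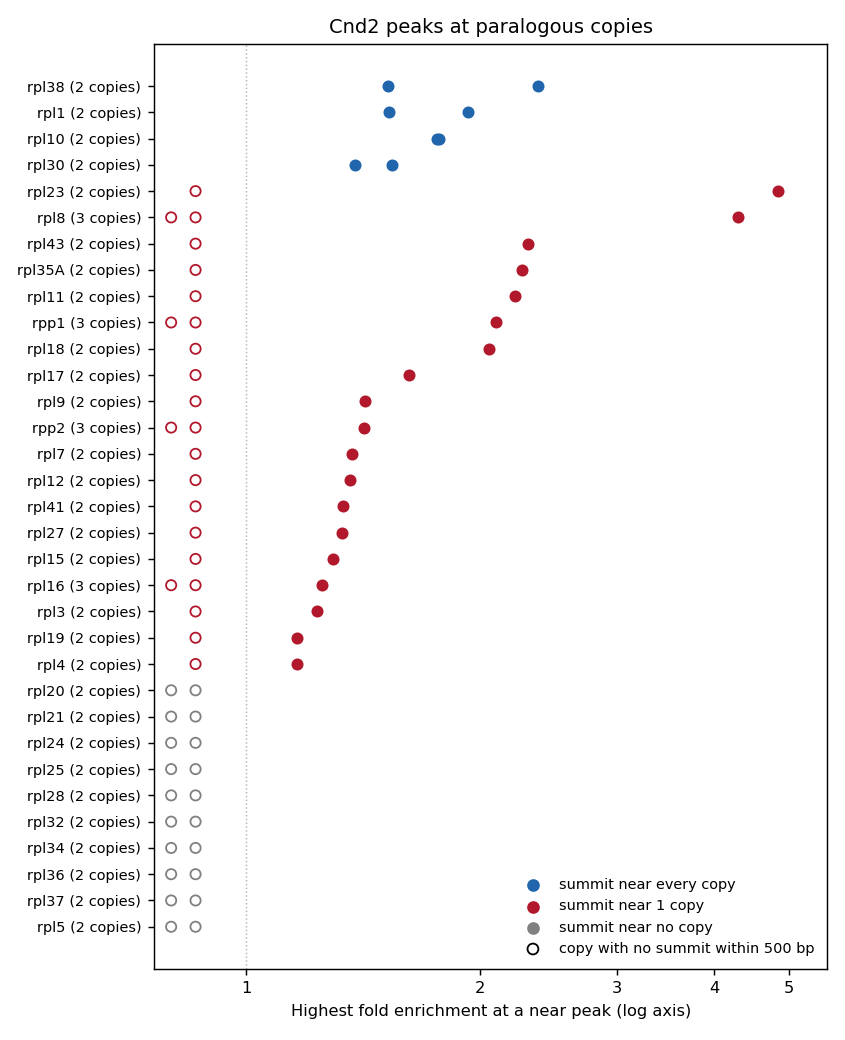
Highest fold enrichment at a peak in reach (x axis, log) for each copy of the 33 families (rows, named by their shared stem, so that rpl8 is rpl801 to rpl803 and rpp1 is rpp101 to rpp103). Open circles at the left are copies with no summit within 500 bp. A summit is in reach of every copy in 4 families (blue), of 1 copy in 19 (red) and of none in 10 (grey). The value of rpl23 is the upstream peak at the end of knh2.

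The limit of 500 bp decided 3 of these cases. Just outside it were rpl803, rpl1201 and rpl4301, each with a summit past its 3′ end, at 512, 523 and 595 bp. Their folds were 3.65 (3.45 to 3.85), 2.25 (2.12 to 2.39) and 3.04 (2.86 to 3.22). The summit at rpl803 lay inside the lysine tRNA gene SPBTRNALYS.06 and that at rpl4301 inside the glutamine tRNA gene SPBTRNAGLN.03, and their part in these peaks was not tested. The summit at rpl1201 was 139 bp from the 3′ end of the convergent gene naa20. Just inside the limit were the summits of rpl3802 at 356 bp and rpl29 at 359 bp and the upstream summit of rpl2302 at 473 bp. The other summit of rpl2302 was inside the gene, so the limit did not decide that case. No member had a nearest summit between 359 and 512 bp.

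Copies of a family are alike in their coding sequence but not beyond their ends, where most summits lay. Over 41 pairs of copies, coding identity ranged from 66.1% to 99.6% with a median of 85.5%. The longest identical stretch of spliced coding sequence had a median of 29 bp. It reached the fragment length of 208 bp in 2 pairs, rpl1201 with rpl1202 (485 bp) and rpl301 with rpl302 (848 bp). In the 500 bp past the 3′ ends the longest identical stretch was 8 to 12 bp in all 41 pairs.

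The first 60 bases past the 3′ ends of the rpl10 and rpl12 copies, both families of nearly identical coding sequence, are shown for this reason (ASM294v3, RefSeq, 5′ to 3′ on the strand of the gene). Capitals mark the longest stretch that the 2 copies share within the 60 bases. In rpl12 another stretch of equal length is shared but not marked.
rpl1001 (chrII:2082344-2082403, plus strand): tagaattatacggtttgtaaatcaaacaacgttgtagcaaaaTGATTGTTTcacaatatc
rpl1002 (chrI:3744907-3744966, plus strand): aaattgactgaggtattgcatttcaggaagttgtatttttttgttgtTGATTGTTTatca
rpl1202 (chrIII:627002-627061, minus strand): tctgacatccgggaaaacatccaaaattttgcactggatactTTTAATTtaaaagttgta
rpl1201 (chrIII:691029-691088, minus strand): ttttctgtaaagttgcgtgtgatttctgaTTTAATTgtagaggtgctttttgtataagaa

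The shared stretch was 9 bases in rpl10 and 7 in rpl12. The coding sequences of rpl1001 and rpl1002 are 97.9% identical and the summits were 44 and 295 bp past their ends. Those of rpl1202 and rpl1201 are 99.6% identical, with summits 211 and 523 bp past their ends at 1.36-fold and 2.25-fold.

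Members without a summit in reach were mostly far from any. The nearest one was a median of 8605 bp away for the 49 genes, from 512 bp at rpl803 to 58645 bp at rpl3201 (eL32), and 46 were beyond 1000 bp. A peak interval touched 1 of them, rpl4301. Counted by overlap of the interval with the gene, 29 of 86 members were touched by a peak, against 12.2% of all protein-coding genes. The 10 families with no copy in reach were rpl5, rpl20, rpl21, rpl24, rpl25, rpl28, rpl32, rpl34, rpl36 and rpl37, among them both copies of rpl5 (uL18), which carries the 5S RNA into the subunit.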

How the data were processed

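The members and lists were chosen with earlier results of these data known. The submitters' processing notes name BWA 0.7.12, MACS2 2.1.0 and build ASM294v2. The caller was MACS 2.1.0.20150731, per the file headers, run on paired-end data from 1 ChIP library against 1 input (q-value cutoff 0.05, 1 fragment kept per position, effective genome size 1.87e+09, which exceeds the 12.6 Mb of the 3 chromosomes). No pooling is recorded. Duplicate removal took 34.7% of ChIP and 10.4% of input fragments.

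In the deposited list, pileup is a signal (fragment coverage at the summit), fold is a ratio of ChIP pileup to local background, and significance is −log10 of the p-value or q-value, all as the authors' caller gave them. Values were used within this list alone. Background was recovered from pileup and fold with a pseudocount of 1. Intervals of a fold are exact Poisson 95% intervals of the pileup with the background held fixed, and shares have exact (Clopper-Pearson) ones.

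Genes came from RefSeq for ASM294v3, not the authors' build. As a check, summits fell within 100 bp of 117 of the 171 tRNA genes, and of 1 to 9 with the annotation shifted by 500 to 5000 bp. Peak coordinates are the authors', and none were converted. A summit inside a gene or within 500 bp counted as in reach. Families share a symbol stem (rpl15 joined rpl1502 by its annotated product). The planned protein identities were replaced by coding sequence identities, from global alignment in Biopython 1.88. Members with a summit could be named, with values in full for the 12 highest folds, families whose copies differ and 3 genes on each side of the limit. Counting was tested on simulated data. Software was scipy 1.17.1, pandas 2.3.3, numpy 2.4.6 and matplotlib 3.10.9 under Python 3.11.15. Reads and an untagged control were not analysed here. Alternatives were stricter peak sets, other distances, overlap of intervals, peaks away from tRNA, rRNA, snRNA and snoRNA genes, members by annotated product, a background held at the genome mean and pileup for fold.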

Additional observations from a re-analysis of the deposited data

How the results depend on the processing

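Of 36 alternative values, 29 stayed within the interval of the reported value (for counts, within 1.5 times of it). With peaks at or above the median fold, 17 members had a summit in reach in place of 37 (19.8%, against 7.22% of all protein-coding genes), 9 families differed in place of 19, and the member held or was nearest to 5 summits in place of 16. With the summit inside the gene, 6 members counted (6.98%, against 6.14% of all protein-coding genes) and their median fold was 1.26 in place of 1.62. A 3′ end within 250 bp was found at 76.3% of the 38 summits in place of 97.4% within 500 bp. With distances of 250 and 1000 bp, 29 and 40 members had a summit in reach (33.7% and 46.5%, against 11.9% and 18.9% of all protein-coding genes). With a background no lower than the genome mean 35 did (40.7%, against 13.4%). Chosen after seeing the data, a count of members whose 3′ end was the nearest to the summit gave 27, and a count of members' peaks above 2-fold with a background no lower than the genome mean gave 7 in place of 12. With that background rpl1 had a summit at 1 copy in place of 2. The rpl4102 peak, at 1.07-fold, was lost too, so rpl41 had a summit at no copy in place of 1. The number of families that differed stayed at 19. No paired analysis was possible because each group held 1 library. The lack of a replicate limits every value.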
